A study of Mus musculus with 4 samples.

Results

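The nuclear genes of the mitochondrial respiratory chain were followed in splenic dendritic cells (DC) that had lost the transcription factor Runx3. Members were chosen by name and brightness. A gene entered if an array probe set carried its symbol alone, if that symbol began with Nduf, Uqcr, Cox4 to Cox8 or Atp5 or was Sdha, Sdhb, Sdhc or Sdhd, and if the log2 value reached 6.5 on at least 1 array; the brightest probe set stood for the gene. This gave 83 of the 9894 genes tested: 34 subunits of complex I, 4 of complex II, 8 of complex III, 13 of complex IV, 17 of complex V and 7 Ndufaf assembly factors of complex I. Of 89 genes of these families with a probe set of their own, 6 stayed under 6.5 on all arrays. Cox7c, Ndufb4 and a further Ndufs5 probe set shared probe sets with another symbol and were left out. The value reached 6.5 on all 4 arrays for 81 members. Of the other 2, Ndufs5 passed through 1 wt array and Cox6a2 was under it on 1 wt array.

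The respiratory chain passes electrons from NADH through complex I, or from succinate through complex II, to complex III and cytochrome c, and complex IV hands them to oxygen. The proton gradient built on the way drives complex V, the ATP synthase. Most subunits are encoded in the nucleus and a few in mitochondrial DNA. DC change their use of respiration and glycolysis when they are activated, and some subunits of complex IV exist as alternative isoforms of different tissues.

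Esam DC came from the spleens of 4 mice, each 6 weeks old: 2 wt mice (genotype label DCRunx3 +/+) and 2 cKO mice (DCRunx3 -/-), as 2 littermate pairs of 1 wt and 1 cKO mouse. In cKO mice floxed Runx3 was deleted by Cre under the CD11c promoter, so loss was meant for CD11c-expressing cells and was not restricted to Esam DC. CD11c+ MHCII+ cells were sorted on Esam, CD4 and CD8, 1 array per mouse, and wt 1 and cKO 1 formed litter 1. Values are log2 RMA values (background-corrected, normalized probe set levels), differences are cKO minus wt on that scale, errors of differences are standard errors from limma, and n = 2 arrays per group.

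The Runx3 probe set did not separate the groups, with 11.37 and 11.51 in wt and 11.47 and 11.45 in cKO. No source used here says whether it covers the deleted part, so it checks no label. All mice are labelled male, whereas Xist was high in the mice of litter 1 (12.75 and 12.78) and low in those of litter 2 (5.15 and 5.19), so litter and sex-linked expression cannot be told apart. Each litter holds both genotypes. The DC markers Itgax, H2-Ab1 and Cd74 were high on all arrays. Of 9 DC markers, 6 lay higher on both cKO arrays (16.4% of all tested probe sets). Zbtb46 was the 1 lower on both (23.7% of all). The highest difference of the 9 was that of Itgam (0.75 ± 0.10, limma adjusted p = 0.216). Summed linear levels of 10 macrophage markers were 10277 and 12669 in wt and 16160 and 17733 in cKO. Those of 10 markers of CD8+ DC (cDC1) were 12498 and 11941 in wt and 17683 and 18545 in cKO. Of these 10, 7 lay higher on both cKO arrays (16.4% of all tested probe sets). The 2 lower on both were Batf3 and Wdfy4 (23.7% of all). For 5 monocyte markers they were 4981 and 5427 in wt and 7775 and 8707 in cKO, and for 3 B cell markers 2989 and 1928 in wt and 3603 and 3008 in cKO. The study reports Irf8 and Spic, which are in these lists, as upregulated in CD4+ DC that lack Runx3. By quantitative PCR it also reports Irf8 as upregulated in DC with high Esam that lack Runx3. The part of macrophages, cDC1, monocytes and B cells in the results was not tested. In bulk RNA, fewer cells of a type and less RNA per cell cannot be told apart.

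What the members share beyond their names was read in their promoters. RefSeq windows of 300 bases (assembly GRCm38.p6, 250 bases before to 50 after the start) existed for 70 of the 83 members. The core of the site of NRF1, an activator of nuclear genes of mitochondria, is CGCNTGCG, with N for any base. On either strand it stood in 28 of 70 members (40%), in 20.8% of 8008 tested genes and in 9.22% of 27025 RefSeq genes. The 9-letter YY1 motif AAGATGGCG stood in 7 members (10%) and in 4.02% of tested genes. The ETS motif CCGGAAG (18 members, 25.7%, against 22.3%) and the TATA motif TATAAA (6 members, 8.57%, against 8.52%) were about as frequent as among tested genes. The RUNX motif TGTGGT stood in 8 members (11.4%) and in 15.1% of tested genes. These are matches of letters and do not show binding.

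**Figure D1:**
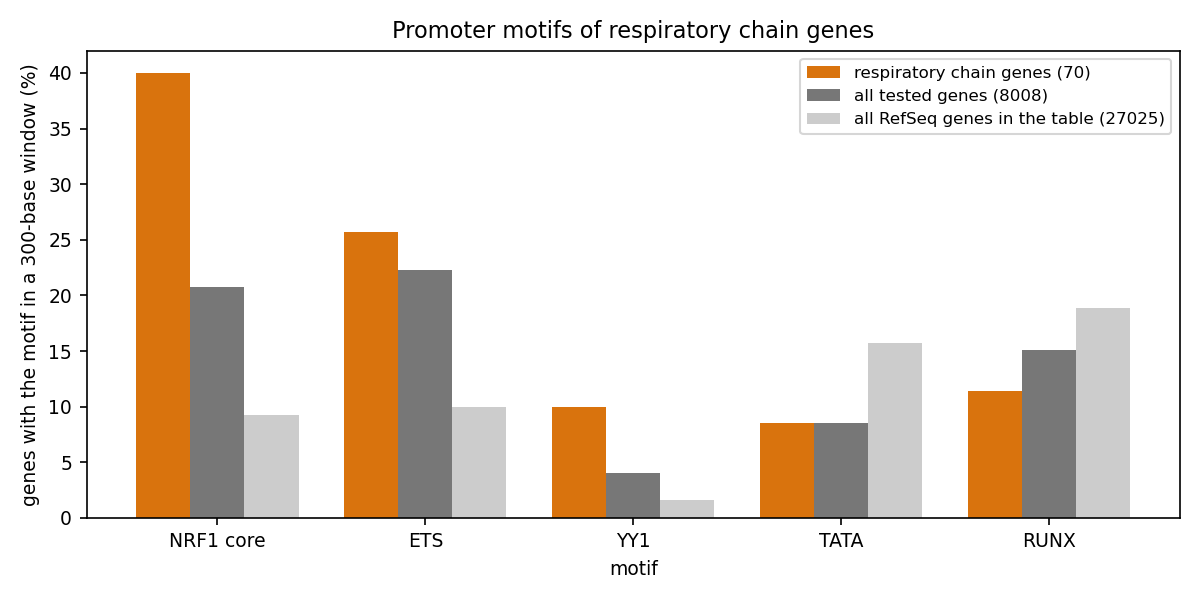
Share of genes (%, vertical axis) with at least 1 match of each motif in a 300-base promoter window, for 70 respiratory chain genes, 8008 tested genes and 27025 RefSeq genes. The widest gap between members and tested genes is that of the NRF1 core, at 40% and 20.8%.

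By complex, the NRF1 core stood in 9 of 31 promoters of complex I (29%), 2 of 3 of complex II (66.7%), 3 of 5 of complex III (60%), 1 of 10 of complex IV (10%, Cox6a1), 10 of 15 of complex V (66.7%) and 3 of 6 of the assembly factors (50%). These counts are small and were not tested. Cox6a2, Cox4i1 and Cox6c of complex IV were not searched. Matches of the NRF1 core had a median first base 29 before the start and those of ETS 18 before it, while YY1 lay 25 after it. The promoters of 5 members whose values are given further on are printed 5′ to 3′, with motif matches on either strand in capitals. Cox6a1 is the partner isoform of Cox6a2, Ndufa8 and Ndufaf4 were lower in both cKO arrays, and Atp5l and Ndufs8 stood apart on array wt 2 in opposite directions.
Cox6a1 promoter, chr5:115348909-115349208, minus strand: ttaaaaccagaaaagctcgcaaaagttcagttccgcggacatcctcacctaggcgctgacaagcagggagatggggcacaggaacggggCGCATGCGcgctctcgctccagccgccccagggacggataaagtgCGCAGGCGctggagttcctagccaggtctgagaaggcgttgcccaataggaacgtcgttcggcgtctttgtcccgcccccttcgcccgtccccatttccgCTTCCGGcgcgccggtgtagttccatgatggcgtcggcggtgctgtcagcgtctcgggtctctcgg
Ndufa8 promoter, chr2:36049289-36049588, minus strand: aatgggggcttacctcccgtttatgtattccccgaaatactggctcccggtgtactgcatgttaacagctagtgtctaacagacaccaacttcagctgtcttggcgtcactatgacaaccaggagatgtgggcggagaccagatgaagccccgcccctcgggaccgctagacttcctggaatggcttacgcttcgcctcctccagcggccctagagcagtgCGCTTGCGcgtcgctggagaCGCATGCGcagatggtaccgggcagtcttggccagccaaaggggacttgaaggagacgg
Ndufaf4 promoter, chr4:24897833-24898132, plus strand: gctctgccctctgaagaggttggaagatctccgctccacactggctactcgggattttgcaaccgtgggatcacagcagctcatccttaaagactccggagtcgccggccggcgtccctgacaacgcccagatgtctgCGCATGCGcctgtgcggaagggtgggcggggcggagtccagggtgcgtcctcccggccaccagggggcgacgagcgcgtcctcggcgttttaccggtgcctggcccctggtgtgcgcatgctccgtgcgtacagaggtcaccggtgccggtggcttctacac
Atp5l promoter, chr9:44920693-44920992, minus strand: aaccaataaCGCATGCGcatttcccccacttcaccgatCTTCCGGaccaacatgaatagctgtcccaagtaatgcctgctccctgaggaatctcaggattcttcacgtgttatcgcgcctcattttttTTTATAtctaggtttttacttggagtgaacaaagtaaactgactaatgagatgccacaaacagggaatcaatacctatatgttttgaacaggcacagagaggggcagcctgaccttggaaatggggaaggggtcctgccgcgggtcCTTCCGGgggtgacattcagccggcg
Ndufs8 promoter, chr19:3912725-3913024, minus strand: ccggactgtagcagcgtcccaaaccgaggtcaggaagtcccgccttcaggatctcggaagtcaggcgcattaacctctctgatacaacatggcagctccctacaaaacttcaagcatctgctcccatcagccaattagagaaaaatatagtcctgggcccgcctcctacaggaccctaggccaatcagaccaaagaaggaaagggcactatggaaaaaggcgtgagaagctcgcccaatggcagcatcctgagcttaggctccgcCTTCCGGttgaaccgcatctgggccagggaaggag
Cox6a1 holds NRF1 cores and an ETS match, Ndufa8 and Ndufaf4 hold NRF1 cores, Atp5l holds an NRF1 core, ETS and TATA matches, and Ndufs8 holds an ETS match. The windows of Ndufa4 and Ndufaf7, also lower in cKO, held none of the motifs searched.

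Between genotypes the chain as a whole lay near 0, with 1 gene far outside. The median difference over the 83 members was -0.02, equal to the median over all 18889 tested probe sets, and 70 members lay within 0.25 of 0. No member reached a limma adjusted p under 0.05, and neither did any tested probe set (0%). At unadjusted p under 0.05, 1 member was higher in cKO, against 4.57% of all tested probe sets, and 3 were lower, against 4.81%. At the thresholds of the study, a fold of at least 1.5 with p of at most 0.05 in its one-way test, 1 member was higher (0.9% of all) and 0 were lower (0.514% of all).

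Both cKO arrays lay above both wt arrays for 6 members (7.23%), against 16.4% of all tested probe sets, and below them for 25 (30.1%), against 23.7%. The limma interval (95%) of the difference lay within 1.5-fold in both directions for 65 of 83 members (78.3%), against 69% of all tested probe sets. For the other 18 the interval reached beyond 1.5-fold on at least 1 side.

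**Figure D2:**
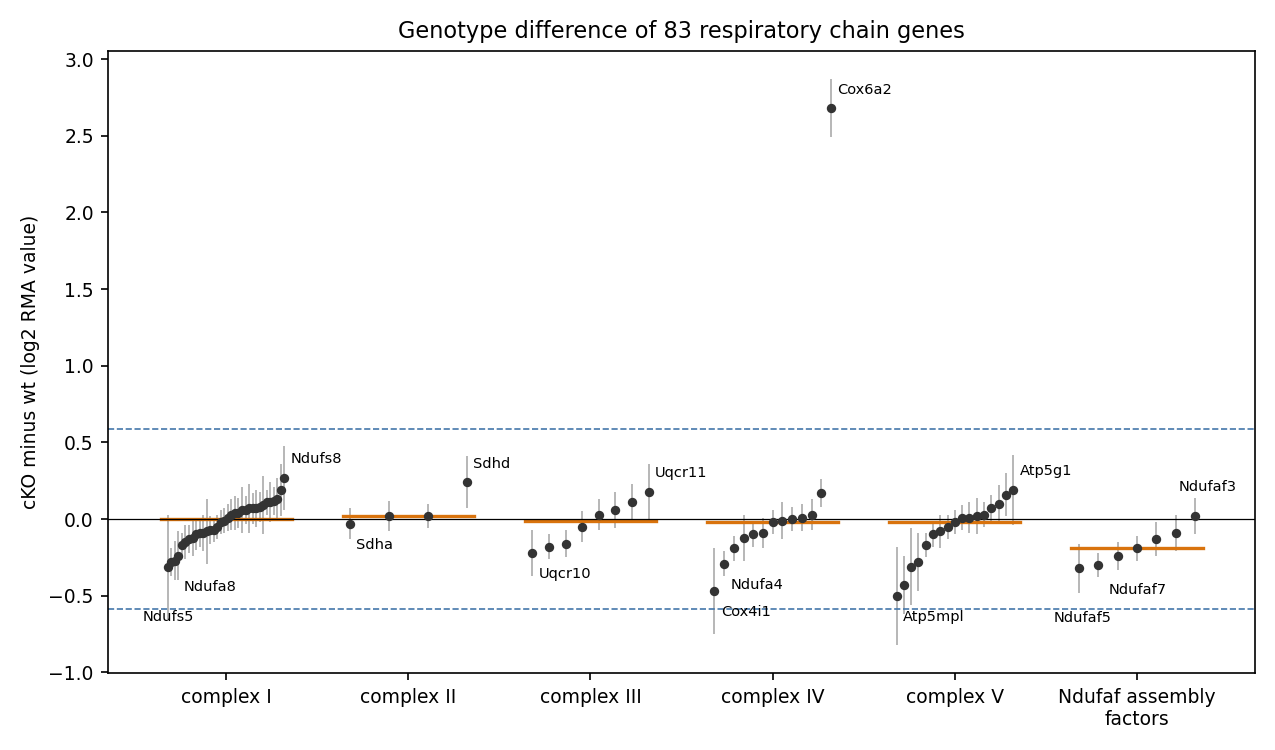
Difference of each of the 83 members (cKO minus wt, log2 RMA value, points) with its limma standard error (bars), by complex, with the median of each complex (orange) and 1.5-fold (dashed). Cox6a2 stands at 2.68, and no other member is more than 0.50 from 0.

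Complex I, the NADH dehydrogenase, had a median difference of 0.00 over 34 subunits (range -0.31 to 0.27), with 17 higher and 17 lower by sign. Its 6 core subunits, which carry the electron path, had a median of -0.02 and its 28 accessory subunits one of 0.01. Ndufa8, an accessory subunit, was at 10.38 and 10.40 in wt and at 10.08 and 10.15 in cKO. Its groups did not overlap, and it was lower in both litters, by -0.31 and -0.25. The difference was -0.28 ± 0.09 (unadjusted p = 0.0283, limma adjusted p = 0.472).

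The lowest and highest differences of complex I were those of Ndufs5 and Ndufs8. Ndufs5, an accessory subunit, was at 6.21 and 7.16 in wt and at 6.29 and 6.44 in cKO. Only wt 2 was high, the groups overlapped, and the difference was -0.31 ± 0.34 (limma adjusted p = 0.847). The brighter probe set that Ndufs5 shares with Ndufs5-ps, left out by the rule, did not show this gap. It was at 7.91 and 8.14 in wt and at 7.99 and 8.04 in cKO. Ndufs8, an iron-sulphur subunit of the core, was at 11.31 and 10.76 in wt and at 11.33 and 11.29 in cKO. Here wt 2 was low, and the difference was 0.27 ± 0.21 (limma adjusted p = 0.771).

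The Ndufaf proteins help to build complex I and are not part of the finished enzyme. Their median difference was -0.19, with 6 of 7 lower by sign (55.1% of all tested probe sets) and 5 of 7 below wt on both cKO arrays (23.7% of all). Within litters the median was -0.25 and -0.14. Ndufaf7, a methyltransferase that modifies a core subunit, was at 8.19 and 8.21 in wt and at 7.90 and 7.91 in cKO. The arrays of each genotype lay within 0.02 of each other, and the difference was -0.30 ± 0.08 (unadjusted p = 0.0195, limma adjusted p = 0.433).

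Ndufaf5, which hydroxylates a core subunit, was at 7.95 and 7.55 in wt and at 7.38 and 7.47 in cKO, a difference of -0.32 ± 0.16 (limma adjusted p = 0.653). Most of it came from litter 1, with -0.57, against -0.08 in litter 2. Ndufaf4 was at 7.58 and 7.50 in wt and at 7.25 and 7.36 in cKO, a difference of -0.24 ± 0.09 (limma adjusted p = 0.558). Its partner in assembly, Ndufaf3, was at 9.96 and 9.71 in wt and at 9.84 and 9.86 in cKO, a difference of 0.02 ± 0.12 (limma adjusted p = 0.979).

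The medians of complexes II and III also lay near 0. Complex II, succinate dehydrogenase, had a median of 0.02 (range -0.03 to 0.24). Sdha, its flavoprotein, was at 11.20 and 11.02 in wt and at 11.10 and 11.06 in cKO (difference -0.03 ± 0.10, limma adjusted p = 0.959). Sdhd, a membrane anchor, was at 9.74 and 9.29 in wt and at 9.77 and 9.74 in cKO (0.24 ± 0.17, limma adjusted p = 0.766). As for Ndufs8, only wt 2 was low.

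Complex III, which passes electrons to cytochrome c, had a median of -0.01 (range -0.22 to 0.18). Uqcr10, a small accessory subunit, was at 8.39 and 8.76 in wt and at 8.36 and 8.36 in cKO (-0.22 ± 0.15, limma adjusted p = 0.764). Uqcr11, another, was at 10.09 and 9.61 in wt and at 10.04 and 10.03 in cKO (0.18 ± 0.18, limma adjusted p = 0.833). In each of these, array wt 2 lay away from the other 3, high for Uqcr10 and low for Uqcr11.

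Cox6a2 was the outlier of complex IV, cytochrome c oxidase, and of the whole chain. It encodes the isoform of subunit 6a known from heart and skeletal muscle and is also known as a gene of plasmacytoid DC (pDC). Its values were 6.36 and 6.77 in wt (6.57 ± 0.29, SD, n = 2) and 9.11 and 9.38 in cKO (9.25 ± 0.19, SD, n = 2). Both cKO arrays were far above both wt arrays, by 2.75 in litter 1 and 2.61 in litter 2.

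The difference of 2.68 ± 0.19, a 6.4-fold higher level in cKO, was the third largest among the 18889 tested probe sets. The wt values lie at the limit of 6.5, under it on wt 1, and no detection call was analysed here, so the fold and rank may understate the difference. Its unadjusted p of 9.75e-05 ranked 9 among them, and its limma adjusted p was 0.158. Of the tested probe sets, 10991 carried exactly 1 symbol. A fit with 1 of these per gene (9894 genes) thus also left out every probe set with no symbol or several. There the limma adjusted p was 0.0345, and Cox6a2 was among 42 genes that passed. Cox6a2 was the member that met the thresholds of the study.

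The partner isoform showed no such difference. Cox6a1, the form of subunit 6a found in most tissues, was at 10.28 and 10.45 in wt and at 10.29 and 10.24 in cKO. The groups overlapped, and the difference was -0.09 ± 0.10 (limma adjusted p = 0.843, interval -0.37 to 0.18). A level of one probe set cannot be set against that of another, so the ratio of the isoforms is not given.

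**Figure D3:**
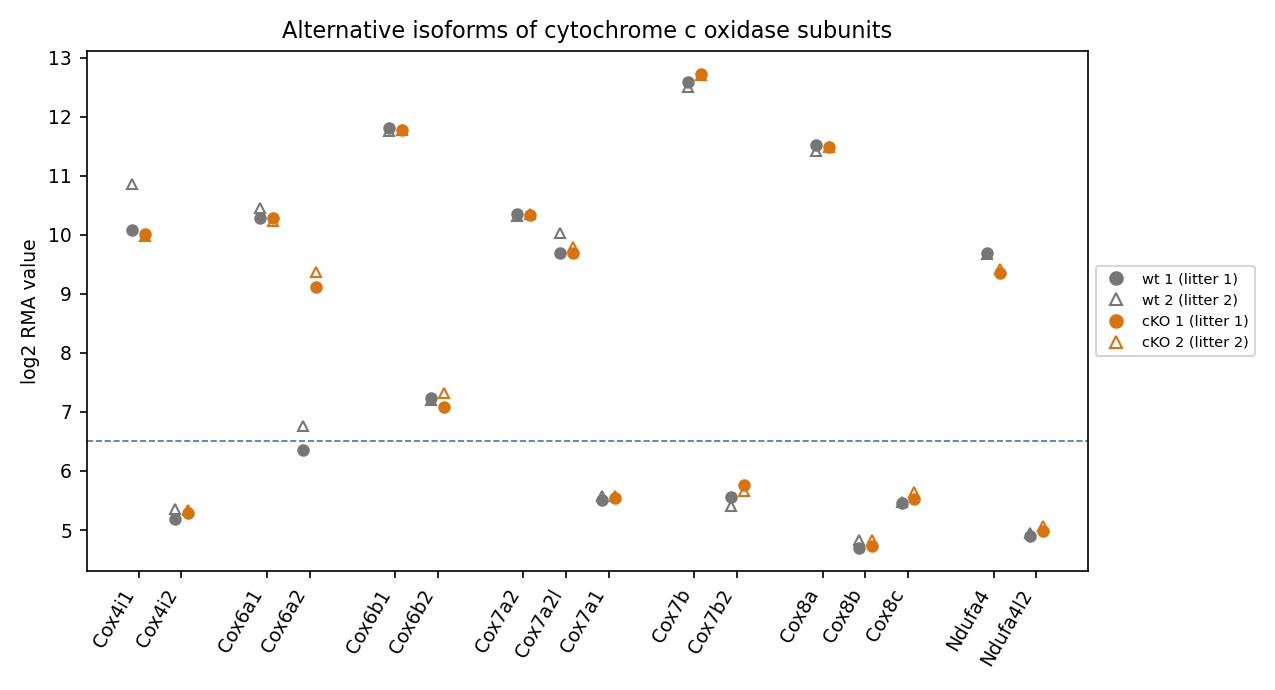
Log2 RMA value on each array (wt grey, cKO orange, litter 1 filled circles, litter 2 open triangles) of complex IV genes with alternative isoforms, with the limit of 6.5 dashed. Cox6a2 is the isoform whose cKO arrays (9.11 and 9.38) lie far above its wt arrays (6.36 and 6.77).

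The other alternative isoforms of complex IV showed no such split. Cox4i2, Cox7a1, Cox7b2, Cox8b, Cox8c and Ndufa4l2, forms of lung, muscle, testis or low oxygen, stayed under 6.5 on all 4 arrays. Cox6b1 and its testis form Cox6b2 differed by -0.02 ± 0.08 and -0.01 ± 0.12. Cox7a2 differed by 0.00 ± 0.08, Cox7a2l, a factor of supercomplexes, by -0.12 ± 0.15, Cox7b by 0.17 ± 0.09 and Cox8a by 0.01 ± 0.09. The limma adjusted p of these 6 lay between 0.651 and 0.996.

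Markers of other cells gave the following values beside Cox6a2. Of 14 pDC markers listed, 11 were tested, of which 6 were higher and 1 (Irf7) lower at unadjusted p under 0.05, against 4.57% and 4.81% of all tested probe sets, and 7 lay higher on both cKO arrays, against 16.4%. Besides Siglech, the 6 higher were Ccr9 (0.77 ± 0.24), Cd209d (0.66 ± 0.16), Tcf4 (0.42 ± 0.09), Tlr7 (0.31 ± 0.10) and Ly6d (0.30 ± 0.08). Irf7 differed by -0.43 ± 0.14. The summed linear level of the list was 12834 and 11768 in wt and 13360 and 13381 in cKO. Bright genes such as Tlr9 (-0.03 ± 0.09) and Lair1 (0.05 ± 0.09) weigh most in that sum. Siglech, a defining pDC marker, had a mean of 6.74 in wt and of 7.35 in cKO, where both arrays (7.19 and 7.51) lay above both wt arrays, a difference of 0.61 ± 0.22 (limma adjusted p = 0.525). Pacsin1, another, was under 6.5 on all arrays. Of 7 markers of striated muscle, 6 (Ckm, Acta1, Myh7, Tnnc1, Myl2 and Mb) were under 6.5 on all arrays. Tnnt2 was at 6.88 and 6.25 in wt and at 6.03 and 6.00 in cKO (-0.55 ± 0.23, limma adjusted p = 0.587). It reached 6.5 only on wt 1, so it was tested only through the group where it is higher. The part of pDC in the Cox6a2 values was not tested.

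**Figure D4:**
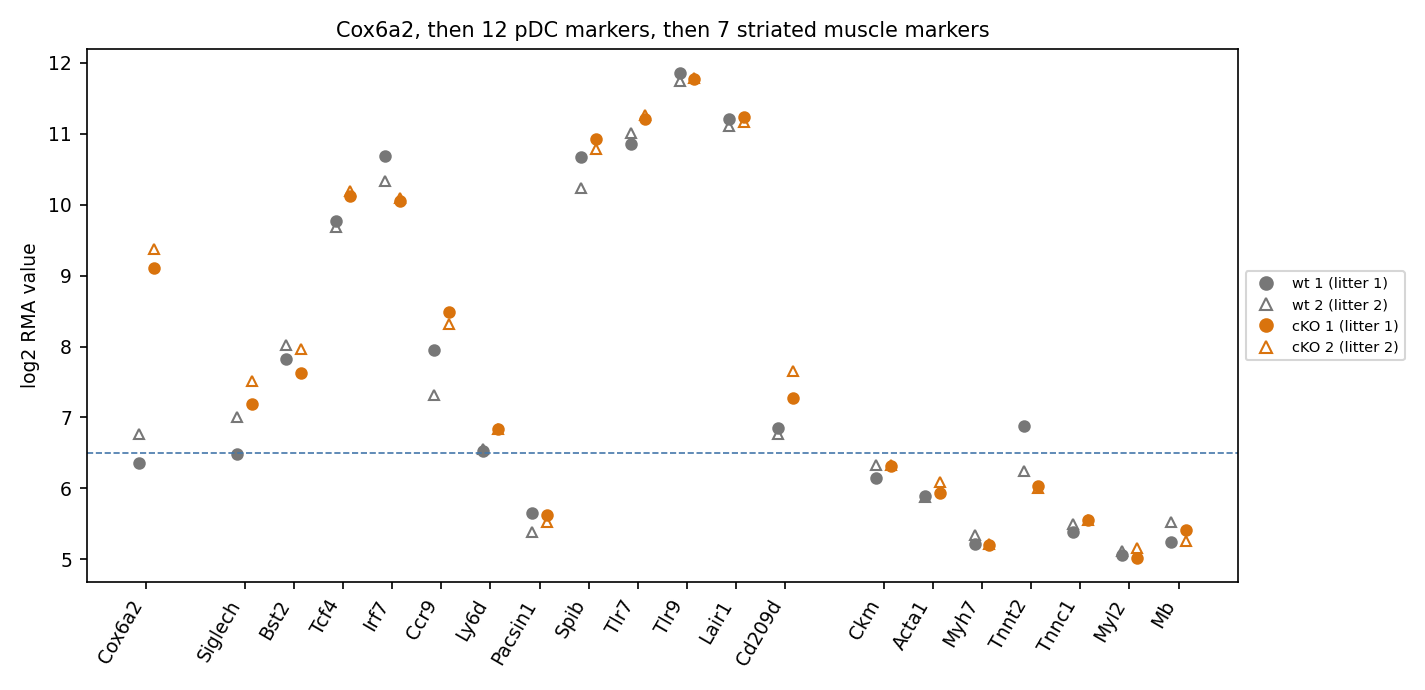
Log2 RMA value on each array (symbols as by group and litter in the legend) of Cox6a2, 12 pDC markers and 7 markers of striated muscle, with the limit of 6.5 dashed. Siglech runs from 6.49 to 7.51 over the 4 arrays and Cox6a2 from 6.36 to 9.38.

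Complex IV without Cox6a2 had a median of -0.06 over 12 genes, with 8 lower by sign (55.1% of all tested probe sets). Ndufa4, long listed with complex I and now with complex IV, was at 9.69 and 9.68 in wt and at 9.36 and 9.42 in cKO. It was lower in both litters, by -0.33 and -0.25, with a difference of -0.29 ± 0.08 (unadjusted p = 0.0237, limma adjusted p = 0.455). Cox5a, a subunit on the matrix side, was at 9.14 and 9.13 in wt and at 8.95 and 8.92 in cKO (-0.19 ± 0.08, limma adjusted p = 0.585), as an example of a narrow difference without overlap chosen after its values were seen. Cox4i1, a large subunit encoded in the nucleus, was at 10.08 and 10.86 in wt and at 10.02 and 9.98 in cKO. Its difference of -0.47 ± 0.28 (limma adjusted p = 0.713) rested on wt 2, with -0.07 in litter 1 and -0.88 in litter 2.

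Complex V, the ATP synthase, had a median of -0.02 over 17 genes (range -0.50 to 0.19). Medians were -0.05 for the 5 genes of the F1 head and stalk, 0.02 for the 3 of the c ring, -0.05 for the 4 of the peripheral stalk and -0.28 for the 5 accessory subunits of the membrane part. In that last group 0 of 5 were lower on both cKO arrays, and Atp5mpl, Atp5l and Atp5k, which set the median, were high on wt 2. Atp5mpl was at 10.04 and 10.92 in wt and at 9.87 and 10.09 in cKO, a difference of -0.50 ± 0.32 (limma adjusted p = 0.734). It was lower by -0.17 in litter 1 and by -0.83 in litter 2, and the groups overlapped.

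The c ring, which turns as protons pass, is encoded by Atp5g1, Atp5g2 and Atp5g3. These yield the same mature protein from different precursors. Atp5g1 was at 11.95 and 11.35 in wt and at 11.90 and 11.78 in cKO (0.19 ± 0.23, limma adjusted p = 0.867), again with wt 2 low. Atp5g2 differed by -0.02 ± 0.08 and Atp5g3 by 0.02 ± 0.12, and the groups overlapped for all 3.

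Array wt 2 stood away from the other arrays in both directions. It was the array farthest from the mean of the other 3 for 47 of 83 members (56.6%), against 36.6% of all tested probe sets. It lay over 0.3 above that mean for 11 members and over 0.3 below it for 9, in all 24.1% of members against 21.7% of all tested probe sets. Cox6a2, which both wt arrays held low, was among those 9. The median gap between the 2 wt arrays was 0.16 for members and for all probe sets, whereas that between the cKO arrays was 0.04 for members and 0.10 for all.

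The members high on wt 2 were Atp5mpl, Ndufs5, Cox4i1, Atp5l, Atp5e, Atp5k, Ndufb10, Uqcr10, Ndufa6, Ndufa1 and Cox7a2l. Atp5l, subunit g of the ATP synthase, was at 9.88 and 10.57 in wt and at 9.93 and 9.90 in cKO. All 6 of its probe sets showed wt 2 high, by 0.64 to 0.83, although probe sets of 1 symbol can share near-identical copies of a gene and are not independent. Low on wt 2 were, besides Cox6a2, Ndufs8, Atp5g1, Sdhd, Uqcr11, Ndufs7, Ndufb9, Atp5d and Ndufc2. The cause was not tested.

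**Figure D5:**
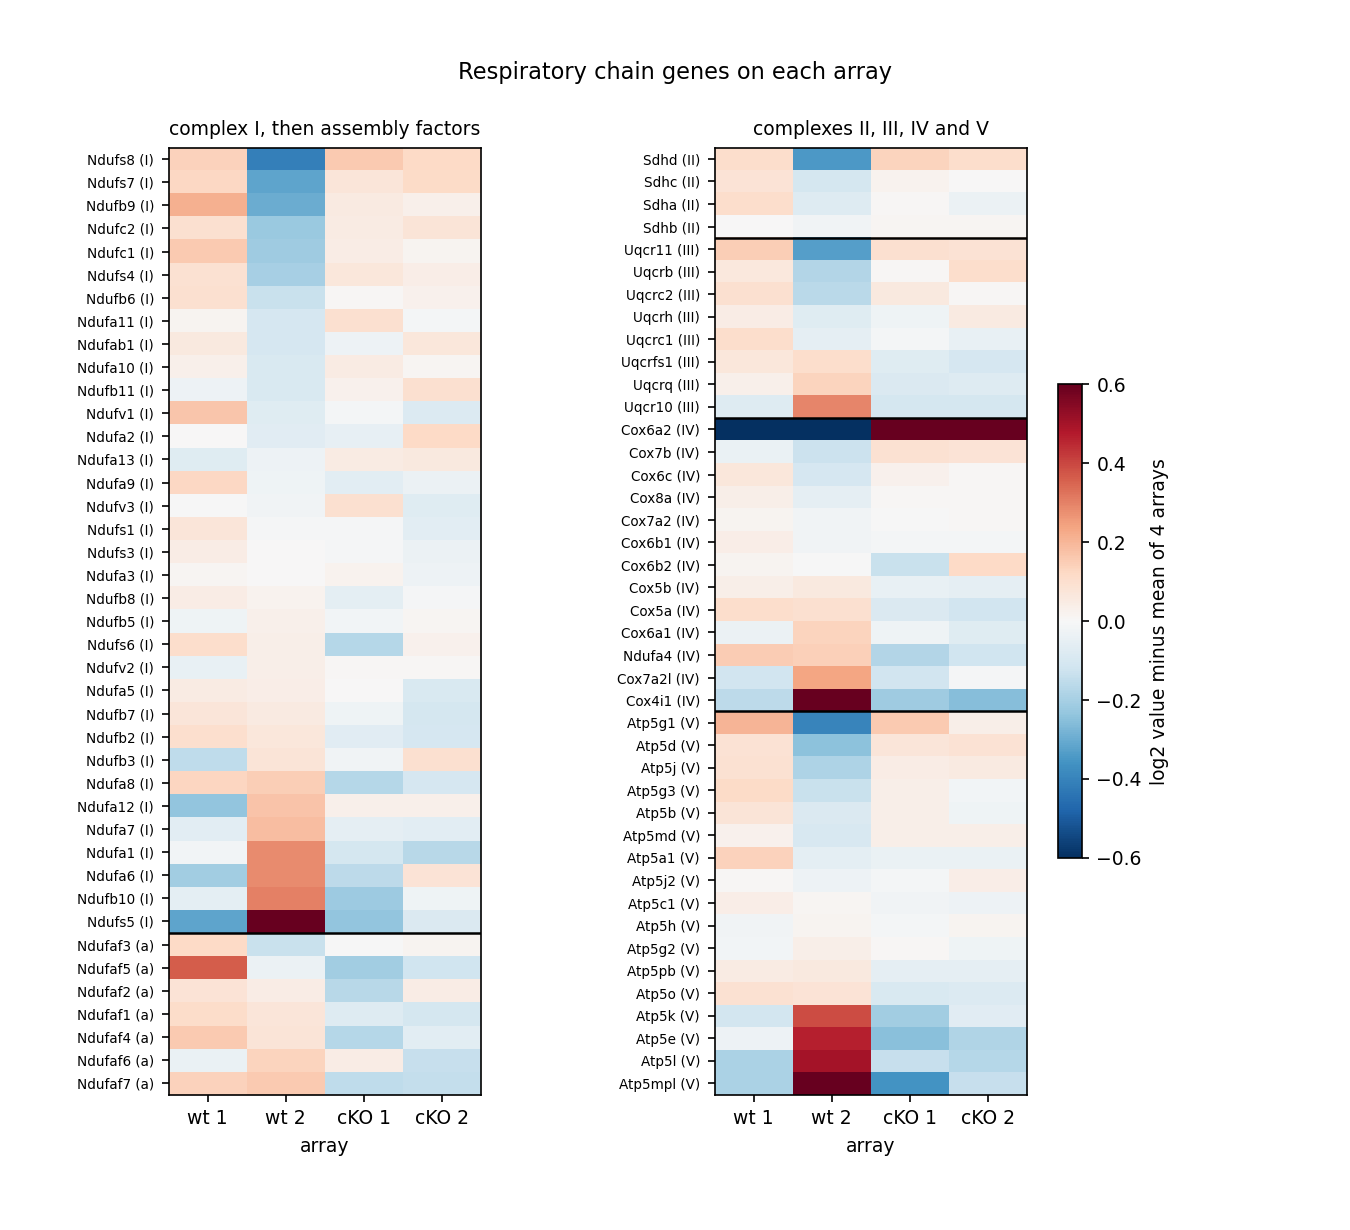
Log2 value of each of the 83 members on each array minus its mean over the 4 arrays (red higher, blue lower, colours saturate at -0.6 and 0.6), ordered within each complex by the deviation of wt 2 (complex in brackets, a for assembly factors). Column wt 2 holds the strongest colours in both directions, and the Cox6a2 row is split by genotype.

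Within litters the medians were again small. The median difference was -0.05 in litter 1 and -0.01 in litter 2, and 42 members (50.6%) kept their sign in both litters, 30 lower and 12 higher, against 57.7% of all tested probe sets. Between litters, 1 member passed an unadjusted p under 0.05, against 5.45% of all tested probe sets, and 0 passed after adjustment. This was Ndufa6, an accessory subunit of complex I, with both mice of litter 2 above both of litter 1 (0.37 ± 0.11, unadjusted p = 0.0289). The highest litter difference (litter 2 minus litter 1) was that of Ndufs5 (0.55 ± 0.26) and the lowest that of Atp5g1 (-0.36 ± 0.17), both with wt 2 far from the rest.

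Genes around the chain were counted in the same way, against the same shares of all tested probe sets (4.57% higher and 4.81% lower at unadjusted p under 0.05). A list of 42 genes held cytochrome c and assembly factors outside the families above. It also held Cyc1, a subunit of complex III outside the rule, and Atpif1, an inhibitor of the ATP synthase. Of the 42, 1 was higher and 1 lower at unadjusted p under 0.05, and the median was -0.03. Cyc1 differed by 0.02 ± 0.12 and Atpif1 by 0.01 ± 0.08. Sdhaf1, which helps to mature complex II, was at 9.58 and 9.47 in wt and at 10.05 and 9.95 in cKO (0.48 ± 0.10, limma adjusted p = 0.312). Acad9, a factor of complex I assembly, was at 9.29 and 9.31 in wt and at 9.07 and 9.05 in cKO (-0.24 ± 0.08, limma adjusted p = 0.51). The other complex II assembly factors, Sdhaf2, Sdhaf3 and Sdhaf4, differed by -0.04, -0.08 and -0.15. The probe sets of 2 subunits encoded in mitochondrial DNA, ND3 and COX2, differed by -0.02 ± 0.09 and 0.02 ± 0.10.

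Regulators of mitochondrial genes (16 tested, median -0.06) gave 1 higher and 2 lower at unadjusted p under 0.05, beside 4.57% and 4.81% of all tested probe sets. By sign 12 of 16 were lower (55.1% of all tested probe sets), and 7 (43.8%) were lower on both cKO arrays, against 23.7% of all. Polg, the polymerase of mitochondrial DNA, differed by 0.44 ± 0.09 (limma adjusted p = 0.31), Pprc1, a coactivator of the PGC-1 family, by -0.43 ± 0.14 (limma adjusted p = 0.482) and Esrra, a nuclear receptor that activates respiratory genes, by -0.27 ± 0.09 (limma adjusted p = 0.495). Nrf1 itself, whose core motif is frequent in the member promoters, was at 9.25 and 9.44 in wt and at 9.14 and 9.22 in cKO (-0.16 ± 0.11, limma adjusted p = 0.74).

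The tricarboxylic acid cycle feeds complexes I and II. Its list of 16 genes also held Pdha1, Pdhb, Dlat and Pdhx of pyruvate dehydrogenase, which are not part of the cycle. The list had a median of -0.15, with 14 lower by sign (55.1% of all tested probe sets). On both cKO arrays 8 (50%) were lower, against 23.7% of all tested probe sets. At unadjusted p under 0.05, 1 was lower, Idh3a, a subunit of isocitrate dehydrogenase, with -0.26 ± 0.09 (limma adjusted p = 0.521). The 77 proteins of the mitochondrial ribosome had a median of -0.04, with 0 past an unadjusted p under 0.05 in either direction.

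The glycolysis list (19 genes, median 0.02) also held Ldha, Ldhb, Pdk1 and the transporters Slc2a1, Slc2a3 and Slc16a3. It gave 2 higher and 1 lower at unadjusted p under 0.05, beside 4.57% and 4.81% of all tested probe sets. Of the hexokinases, which open the pathway, Hk1 was the brightest and differed by 0.02 ± 0.11 (limma adjusted p = 0.979). Hk3 and Hk2 differed in opposite directions. Hk3 was at 6.52 and 6.63 in wt and at 7.35 and 7.22 in cKO (0.71 ± 0.10, limma adjusted p = 0.223), and it met the thresholds of the study. Hk2 was at 9.03 and 9.14 in wt and at 8.74 and 8.66 in cKO (-0.38 ± 0.09, limma adjusted p = 0.398). Aldoc, an aldolase and the other of the 2 higher, was at 6.04 and 5.98 in wt and at 6.24 and 6.57 in cKO. Its difference was 0.39 ± 0.14 (limma adjusted p = 0.525). It reached 6.5 only on cKO 2, so it was tested only through the group where it is higher.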

How the data were processed

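Affymetrix arrays of Esam DC from 2 wt and 2 cKO mice were analysed from the deposited table of log2 values, made by the authors in Partek by RMA corrected for GC content. Versions are not stated, and mm9 is the build named in the submitters' processing notes. The sources differ on the array (exon 1.0 ST in the methods, gene 1.0 ST in the platform annotation) and on the RNA kit. Array medians lay between 6.58 and 6.62, and the number of arrays limits the precision.

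Of 35399 probe sets, the 18889 that reached 6.5 on at least 1 array, as in the study's methods, were tested with limma (version 3.58.1, R 4.3.3, lmFit and eBayes, two-sided, Benjamini-Hochberg over all tested, threshold 0.05). The spread had 2 residual and 2.2 prior degrees of freedom. p-values refer to the spread between 2 mice per group. The fit was tested on simulated data.

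Genes were named by the platform annotation, and all 83 members matched a RefSeq gene ID with the same symbol. Named members were Cox6a2, those past an unadjusted or study threshold, the widest in each complex and between litters, and all alternative isoforms, with up to 4 genes of each other list. Members shown for wt 2, for promoters or as examples (Ndufaf4, Cox5a, Atp5l, Nrf1) were chosen after their values were seen. Members and lists were chosen with earlier results of these data known. Promoters came from RefSeq (GRCm38.p6). The NRF1 core stood in for a longer form of the motif.

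The labels pair the mice by litter. Across tested probe sets, deviations from the group means correlated within litters (r = 0.266). Alternatives covered the litter block, the methods' test, filters, normalization, the probe set of a gene, the variance prior and each array left out. Protein sequences were not used here.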

Additional observations from a re-analysis of the deposited data

How the results depend on the processing

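With the replicate block (litter) added, 0 members passed the adjusted threshold, 1 was higher and 3 lower at unadjusted p, and Cox6a2 kept 2.68 (limma adjusted p = 0.217), so the pairing changed no call. The difference of Cox6a2 ran from 2.48 to 2.88 with each array left out, and its limma adjusted p over all alternatives from 0.0345 to 0.877. With 1 probe set per gene, and without probe sets of no symbol or several, 1 member passed the adjusted threshold (Cox6a2, 2.68). In that fit 5 were lower at unadjusted p. The methods' one-way test gave 2 higher and 10 lower, a variance trend 2 higher, and no filter 5 lower. Members apart and higher in cKO numbered 12 after median centring and 10 after quantile normalization, which set the complex IV median to -0.00. Complex I with the Ndufaf factors had a median of -0.05. The litter contrast with genotype as a block gave 2 members.

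With each array left out in turn, members higher at unadjusted p numbered 1 to 9 and lower 0 to 12, with the maximum of each without wt 1 and 0 lower without cKO 1 or cKO 2. Members at the thresholds of the study numbered 0 higher and 0 to 2 lower (2 without wt 1). Apart members numbered 12 to 37 higher and 29 to 49 lower, where a lone array makes separation easier. Medians ran from -0.05 to -0.01 for all members, from -0.03 to 0.01 for complex I, from -0.03 to 0.09 for complex II (0.09 without wt 1), from -0.06 to 0.06 for complex III, from -0.07 to 0.00 for complex IV, from -0.06 to -0.00 for complex V and from -0.23 to -0.16 for the Ndufaf factors. The lone array was assumed to vary like the other group.

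Of 299 alternatives for 23 single members, 283 kept sign and side, and 16 turned sign without passing the threshold. Cox6a2 is not among these 23, and it passed the adjusted threshold with 1 probe set per gene (limma adjusted p = 0.0345). No background value per probe set was analysed here, so low levels have no detection call.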
